A study of Mus musculus with 9 samples.

Results

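The 58 genes described here encode the ligands, receptors, extracellular binders, Smads, inhibitors and first response genes of the bone morphogenetic protein (BMP) and transforming growth factor beta (TGF-beta) pathways. They were taken by gene symbol from a fixed list, and all 58 were among the 21049 genes of the deposited table. Each was measured by RNA sequencing in 9 libraries of smooth muscle cells sorted by fluorescence from mouse lung, 3 per group. The total_SMC group came from mice with the genotype tg-Acta2-GFP and took in all pulmonary smooth muscle, that of veins too; in these mice a smooth muscle actin promoter drives the fluorescent protein. The PASMC group was smooth muscle of the pulmonary artery, sorted from ASMC-effector mice (genotype Cspg4/Acta2-CreER/R26-GFP). The BSMC group was smooth muscle of the bronchi, sorted from NVSMC-effector mice (genotype Chrm2/Acta2-CreER/R26-GFP). In the driver lines the recombinases follow the promoters named in the genotype and switch on a reporter at the Rosa26 locus. Tamoxifen was given to all groups by their labels, with 0.75 mg for each 10 g of mouse over 3 days. Ages were not given, and nothing said whether libraries came from separate mice, so p-values measure the spread between these libraries, which may be technical. Each group had its own mouse line, so cell population, line and sort cannot be told apart. PASMC and BSMC shared the R26-GFP reporter, and total_SMC had another.

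In this pathway a dimeric ligand brings together type II and type I receptor kinases, which phosphorylate receptor Smads that enter the nucleus with the common partner Smad4. TGF-beta and activin ligands act mainly through Smad2 and Smad3, and BMP ligands through Smad1, Smad5 and Smad9. Matrix proteins hold TGF-beta in a latent form, secreted antagonists trap BMPs and activins, and Smad6 and Smad7 feed back as inhibitors. Loss of the receptor gene Bmpr2 is a known cause of heritable pulmonary arterial hypertension, and TGF-beta drives contractile gene expression in smooth muscle.

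Values are normalized read counts per gene, and a read depth of 6.39 to 10.0 M reads per library was implied by their rounding. It was 8.93 to 9.90 M in total_SMC and 8.92 to 10.0 M in PASMC. In BSMC replicates 1, 2 and 3 it was 7.14, 9.33 and 6.39 M. Depth thus went with the group, and its part in the comparisons with BSMC was not tested. Calls use limma on log2(value + 1) and an adjusted p (Benjamini-Hochberg over the 15647 genes tested) below 0.05. Each log2 fold change has its standard error (SE). Of the driver genes, Chrm2 was called in the direction opposite to the labels, with libraries that overlapped, and Cspg4 was not called between the lines. Chrm2, the muscarinic receptor gene of the BSMC driver, was at 398, 385 and 199 in PASMC and 155, 223 and 115 in BSMC. It was called higher in PASMC than in BSMC (0.98, SE 0.31, adjusted p = 0.0433) although the groups overlapped. In total_SMC Chrm2 was at 240, 324 and 351, called higher than in BSMC (0.92, SE 0.31, adjusted p = 0.0329). Cspg4, the proteoglycan gene of the PASMC driver, was at 1958, 1658 and 2393 in PASMC and 1296, 1469 and 1778 in BSMC, which overlapped (0.40, SE 0.26, adjusted p = 0.268). It was at 585, 750 and 331 in total_SMC, called lower there than in PASMC (-1.91, SE 0.26, adjusted p = 0.000441). The smooth muscle genes Acta2 and Myh11 were abundant in all 9 libraries, at 2892 to 4526 and 9171 to 12498. Markers of other cells were present and moved with the groups, as the plot of summed marker genes shows. As CPM, each value scaled to the library's total in the table, 12 fibroblast genes summed to 6814 to 7550 in total_SMC, 4871 to 5486 in PASMC and 4002 to 5004 in BSMC. Of these 12, 7 were higher and 0 lower in total_SMC than in BSMC (23.7% of all genes higher). In PASMC against BSMC 7 were higher and 0 lower (13.2%), and in total_SMC against PASMC 5 were higher and 0 lower (9.39%). In CPM, 12 leukocyte genes summed to 58.5 to 91.1 in total_SMC, 198 to 209 in PASMC and 852 to 1310 in BSMC, 8 mesothelial genes to 606 to 766 in total_SMC, 29.3 to 47.8 in PASMC and 69.3 to 175 in BSMC and 12 endothelial genes to 1548 to 1902 in total_SMC, 982 to 1203 in PASMC and 1254 to 1408 in BSMC. Pericyte genes (9) summed to 1608 to 1701 in total_SMC, 1790 to 1924 in PASMC and 1279 to 1574 in BSMC, 12 epithelial genes to 463 to 609 in total_SMC, 585 to 706 in PASMC and 592 to 707 in BSMC, and 6 haemoglobin and other erythroid genes to 8.82 to 16.8 in total_SMC, 0.81 to 2.34 in PASMC and 35 to 85.2 in BSMC. These sums can be carried by few genes. Of the 12 leukocyte genes, 6 were higher and only Lyz2, a lysozyme gene, was lower in total_SMC than in PASMC. Over all genes the shares there were 9.39% higher and 6.83% lower. Lyz2 was at 333, 485 and 395 in total_SMC, 1843, 1670 and 1689 in PASMC and 2465, 1939 and 2798 in BSMC. Of the 9 pericyte genes, 3 were higher and 5 lower in total_SMC than in BSMC (23.7% and 18.2% of all genes). In PASMC against BSMC 4 were higher and 3 lower (13.2% and 8.88%). Ptprc, the pan-leukocyte phosphatase, was at 0 in every PASMC library and at 760, 569 and 391 in BSMC. 

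**Figure D1:**
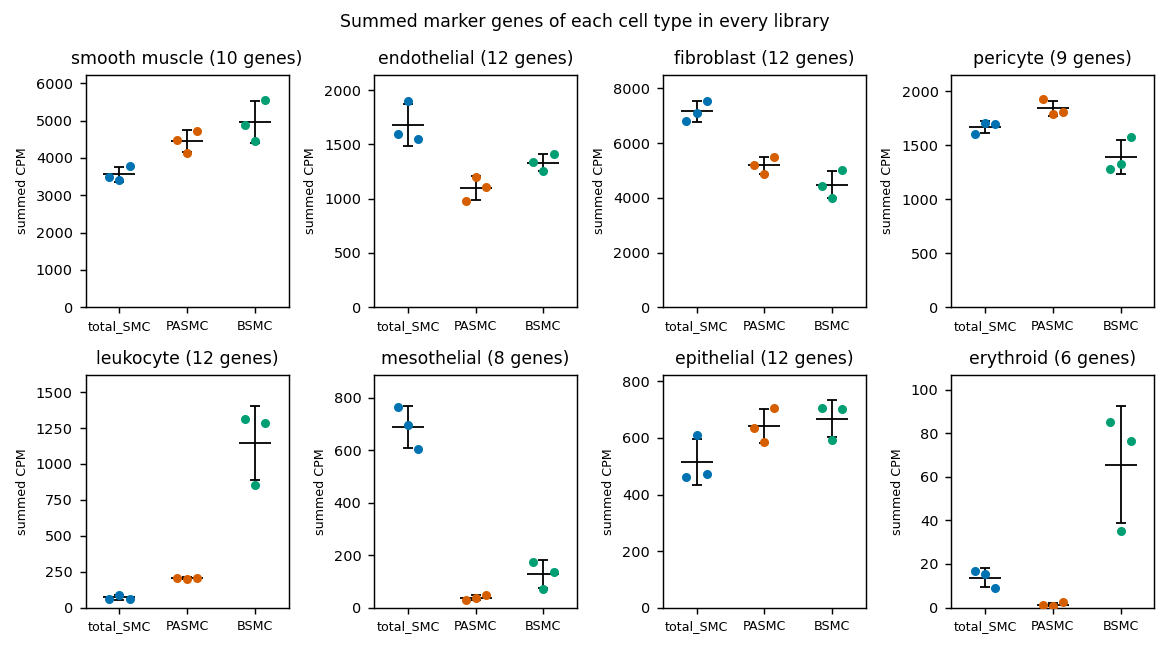
Summed normalized counts of marker genes of 8 cell types (CPM) for each of the 9 libraries; points are libraries, and the line and bars are the mean ± SD of 3. Leukocyte genes stand out in BSMC (852 to 1310) and mesothelial genes in total_SMC (606 to 766).

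All 58 genes passed the filter on low values, although Gdf6 and Grem1 were under 10 in every library of at least 1 group and passed through the groups where they were high. Most of the 58 differed between total_SMC and BSMC: 42 were called (72.4%), 27 higher and 15 lower in total_SMC, where 41.9% of all genes tested were called (23.7% higher and 18.2% lower). Between total_SMC and PASMC, 17 were called (29.3%), 8 higher and 9 lower in total_SMC, against 16.2% of all genes (9.39% higher and 6.83% lower). That count was 11 without total_SMC replicate 1, where 11% of all genes were called, and 11 without total_SMC replicate 2, where 10.7% were. Between PASMC and BSMC, 18 were called (31.0%), 14 higher and 4 lower in PASMC, against 22.1% of all genes (13.2% higher and 8.88% lower). It was 30 without BSMC replicate 2, 21 higher and 9 lower in PASMC, where the calls over all genes also went up, to 42.8%. The groups did not overlap for 45 of the 58 genes in total_SMC against BSMC (50.5% of all genes), 38 in total_SMC against PASMC (40.5%) and 26 in PASMC against BSMC (35.2%). With the deposited scaling undone, which put the all-gene median at 0.22 in total_SMC against BSMC and 0.27 in PASMC against BSMC, the calls were 27 higher and 9 lower between total_SMC and BSMC, and 14 and 1 between PASMC and BSMC. All genes shifted the same way under that setting, with 3392 higher and 1554 lower in total_SMC than in BSMC, and 1891 and 690 in PASMC against BSMC. Scaled to equal totals, they were 23 higher and 18 lower in total_SMC against BSMC, and 14 and 7 in PASMC against BSMC. The median log2 fold change of the 58 was 0.31 in total_SMC against BSMC, beside 0.05 for all genes, 0.06 in total_SMC against PASMC, beside 0.03, and 0.09 in PASMC against BSMC, beside 0.05. Bmp5, Gdf10, Fst and Smad5 were called in all 3 comparisons, and 15 of the 58 in none. The matching shares of all genes were not worked out, so these counts only describe the 58. The 3 comparisons share groups, so their calls are not independent. In bulk samples, fewer cells of a type and less RNA per cell cannot be told apart.

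**Figure D2:**
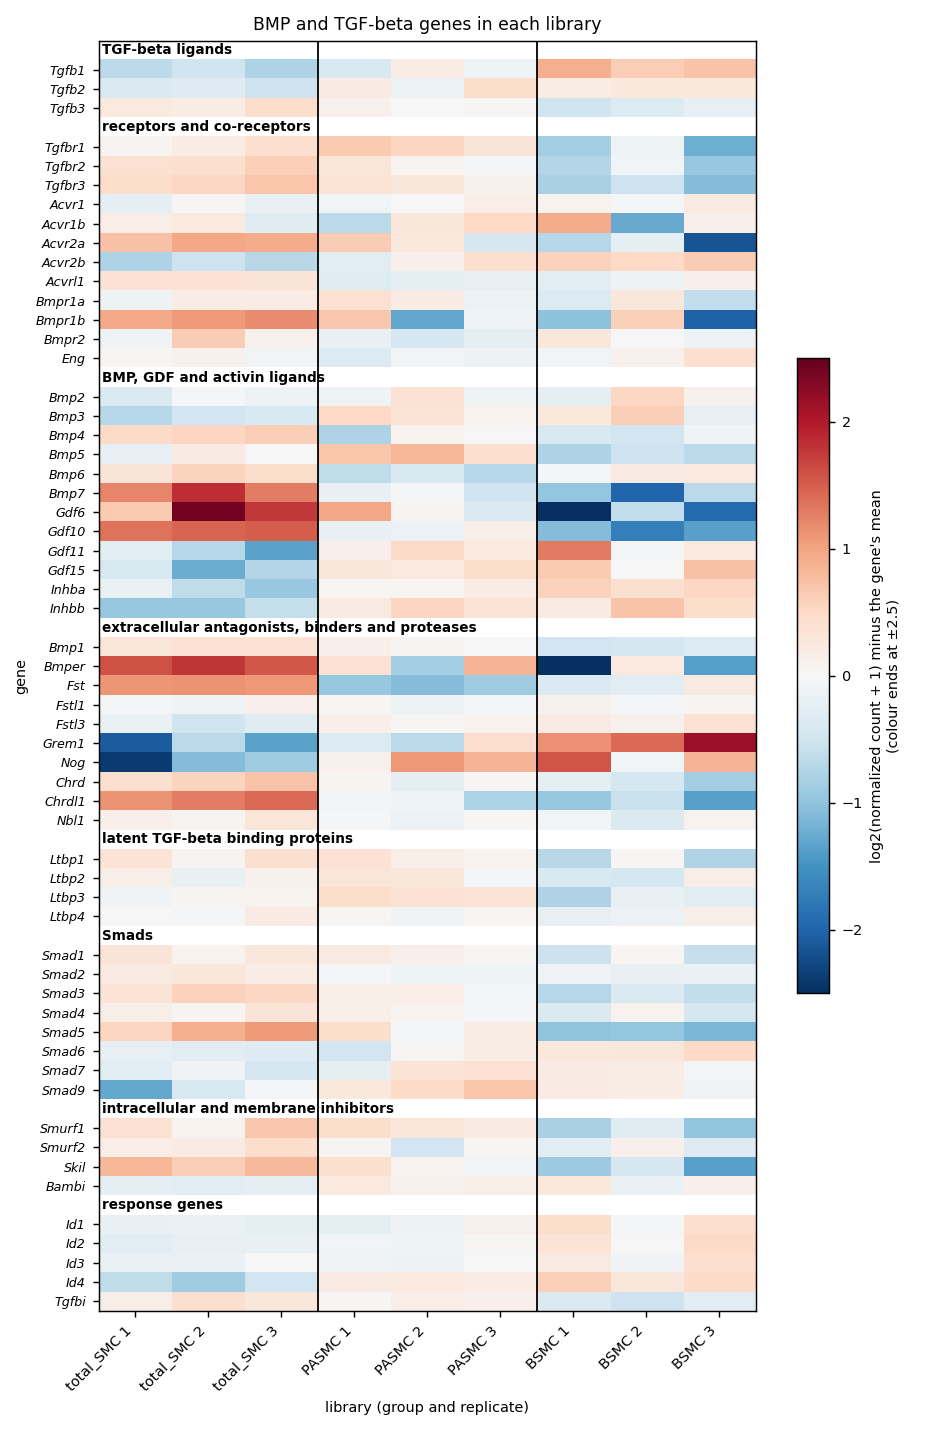
Heat map of the 58 genes (rows, by role) in the 9 libraries (columns, by group), coloured by log2(normalized count + 1) minus the mean of the gene over the 9 libraries. Gdf10, Fst and Chrdl1 are above their mean in all total_SMC libraries, and Tgfb1 and Grem1 in all BSMC libraries.

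**Figure D3:**
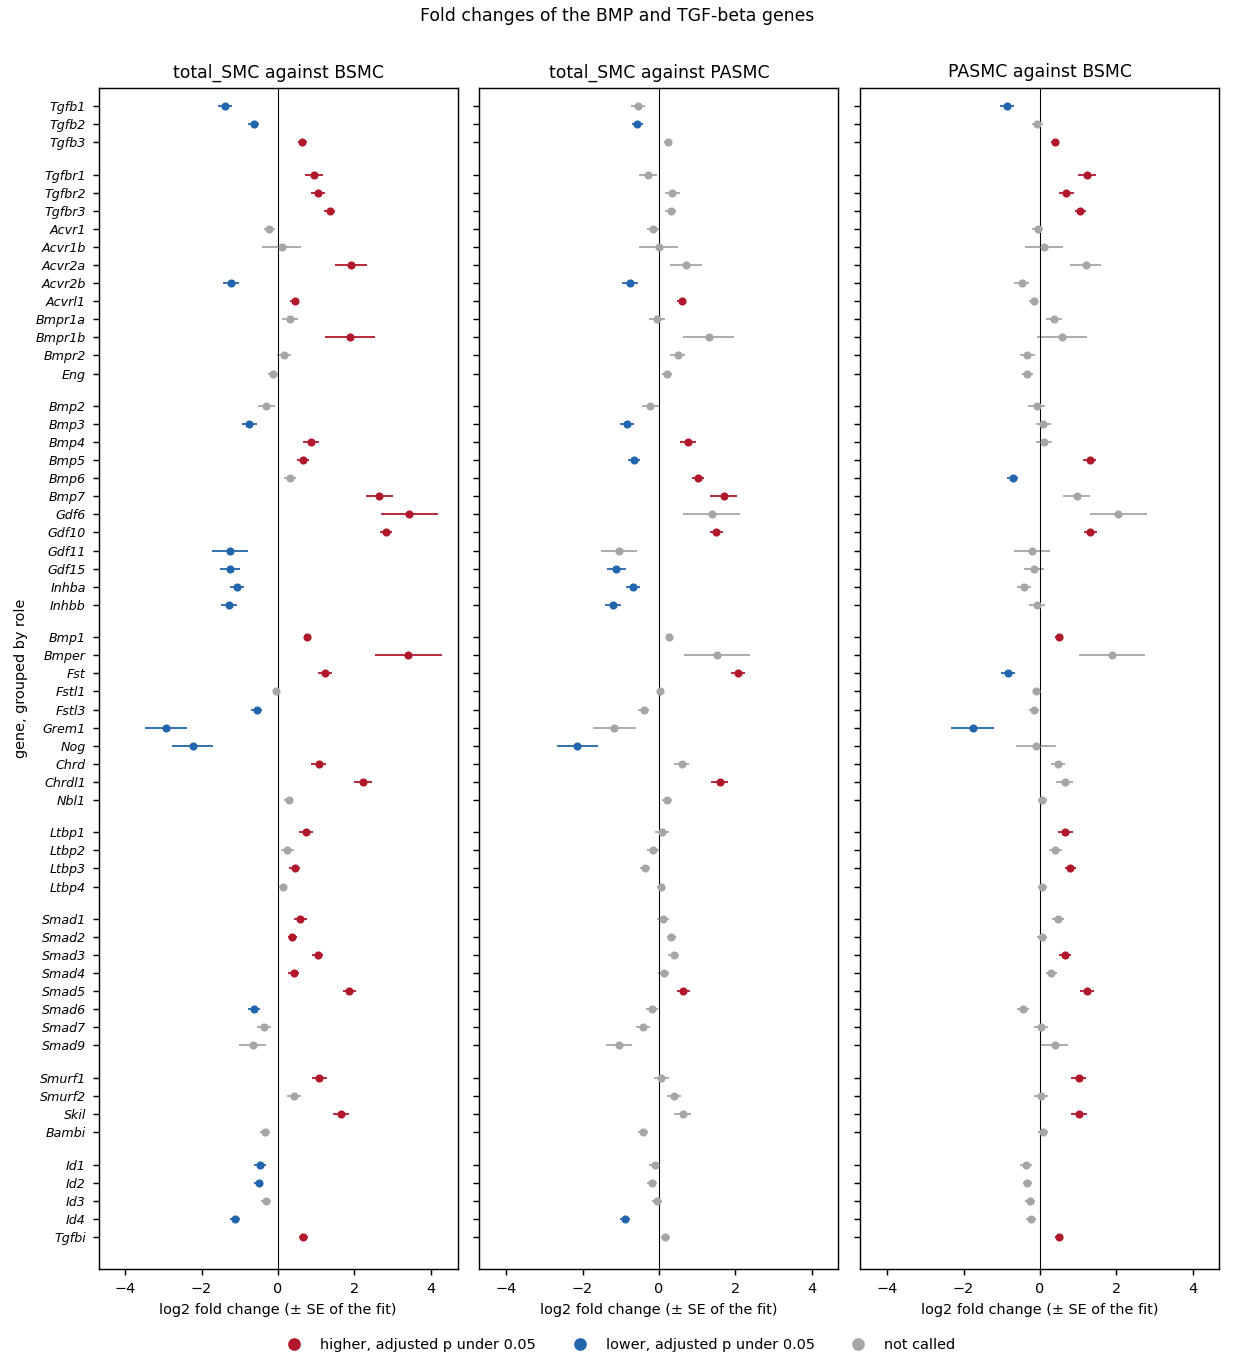
Log2 fold change of each of the 58 genes in the 3 comparisons, with the SE of the fit as bars; red and blue points passed an adjusted p of 0.05 as higher and lower, grey points did not. Most coloured points are in total_SMC against BSMC, 42 of 58.

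The TGF-beta isoforms ran in opposite directions. Tgfb3 was the most abundant per exon length and was higher in both total_SMC and PASMC than in BSMC, while Tgfb1, the isoform abundant in blood and immune cells, was highest in BSMC. In normalized counts per kb of exon, Tgfb3 averaged 1207 in total_SMC, 1020 in PASMC and 777 in BSMC. On the same scale Tgfb1 averaged 40.5 in total_SMC, 59.5 in PASMC and 107 in BSMC. Tgfb1 (ENSMUSG00000002603, mm39 chromosome 7, 25386427 to 25404502) was at 201, 224 and 187 normalized counts in total_SMC, 244, 361 and 295 in PASMC and 599, 491 and 524 in BSMC. For Tgfb1 the 3 groups were fully apart, highest in BSMC and lowest in total_SMC. Tgfb2, the isoform of the developing heart and vessels, was at 841, 866 and 761 in total_SMC, 1257, 981 and 1464 in PASMC and 1233, 1295 and 1304 in BSMC. Tgfb2 lay below the PASMC and BSMC values in every total_SMC library, and those 2 groups overlapped. Tgfb3 (ENSMUSG00000021253, mm39 chromosome 12, 86103519 to 86125815) was at 3963, 3790 and 4494 in total_SMC, 3607, 3347 and 3401 in PASMC and 2349, 2632 and 2904 in BSMC. For Tgfb3 the 3 groups were fully apart, highest in total_SMC and lowest in BSMC. Tgfb3 (log2 fold change 0.64, SE 0.11, adjusted p = 0.00094) was higher in total_SMC than in BSMC. Tgfb1 (log2 fold change -1.39, SE 0.18, adjusted p = 0.000155) and Tgfb2 (-0.64, SE 0.15, adjusted p = 0.00592) were lower in total_SMC than in BSMC. Tgfb2 (log2 fold change -0.57, SE 0.15, adjusted p = 0.0222) was lower in total_SMC than in PASMC. Tgfb3 (log2 fold change 0.40, SE 0.11, adjusted p = 0.0256) was higher in PASMC than in BSMC. Tgfb1 (log2 fold change -0.85, SE 0.18, adjusted p = 0.00734) was lower in PASMC than in BSMC. The leukocyte genes named above moved with Tgfb1 between BSMC and the other groups. Between total_SMC and PASMC they did not: 6 of the 12 were higher and 1 lower in total_SMC (9.39% and 6.83% of all genes). Tgfb1 lay below PASMC in every total_SMC library and was not called there. The part of leukocyte genes in the Tgfb1 values was not tested. For Tgfb1 the difference of PASMC from BSMC no longer passed on values with the deposited scaling undone (adjusted p = 0.0944). For Tgfb2 the difference of total_SMC from BSMC no longer passed on values with the deposited scaling undone (adjusted p = 0.0939). For Tgfb2 the difference of total_SMC from PASMC no longer passed without total_SMC replicate 1, 2 or 3 (adjusted p = 0.0621, 0.0516 and 0.0999), without PASMC replicate 1 or 3 (0.0805 and 0.105) or on values with the deposited scaling undone (0.0674). For Tgfb3 the difference of PASMC from BSMC no longer passed without PASMC replicate 1, 2 or 3 (adjusted p = 0.104, 0.0649 and 0.059), without BSMC replicate 1 (0.0902) or in a fit of the pair of groups alone (0.054).

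The latent TGF-beta binding proteins, which anchor the inactive ligand in the matrix, gave 2 higher of 4 in total_SMC against BSMC, where 41.9% of all genes were called. In PASMC against BSMC 2 of 4 were higher (22.1% of all genes called), and none of the 4 was called between total_SMC and PASMC (16.2%). Ltbp1 was at 7790, 6476 and 8128 in total_SMC, 7898, 6813 and 6573 in PASMC and 3788, 6320 and 3669 in BSMC. Ltbp1 in BSMC lay below all of those in total_SMC and PASMC, which overlapped. Ltbp3 was at 3649, 4099 and 4163 in total_SMC, 5379, 4970 and 4944 in PASMC and 2289, 3425 and 3193 in BSMC. For Ltbp3 the 3 groups were fully apart, highest in PASMC and lowest in BSMC. Ltbp4, a partner of elastic fibres and the most abundant of the 4 per exon length, was at 9243, 8978 and 10532 in total_SMC, 9364, 8624 and 9502 in PASMC and 7941, 8299 and 10106 in BSMC and was not called. For Ltbp4 the libraries of all 3 groups overlapped. Ltbp2, a microfibril protein, ran from 1669 to 2775 over the 9 libraries and was not called either. Ltbp1 (log2 fold change 0.74, SE 0.18, adjusted p = 0.00815) and Ltbp3 (0.44, SE 0.14, adjusted p = 0.0271) were higher in total_SMC than in BSMC. Ltbp1 (log2 fold change 0.67, SE 0.18, adjusted p = 0.025) and Ltbp3 (0.80, SE 0.14, adjusted p = 0.00212) were higher in PASMC than in BSMC. For Ltbp1 the difference of PASMC from BSMC no longer passed without PASMC replicate 1 or 2 (adjusted p = 0.1 and 0.0614), without BSMC replicate 1 or 3 (0.0981 and 0.0746), on values with the deposited scaling undone (0.0563) or in a fit of the pair of groups alone (0.0554). For Ltbp3 the difference of total_SMC from BSMC no longer passed without total_SMC replicate 2 or 3 (adjusted p = 0.0789 and 0.087), without BSMC replicate 1 (0.0814), after scaling to equal totals (0.0924), after quantile normalization (0.086) or in a fit of the pair of groups alone (0.0598). Without BSMC replicate 3, Ltbp2 passed in PASMC against BSMC (0.59, adjusted p = 0.014) and in total_SMC against BSMC (0.43, adjusted p = 0.033). Without BSMC replicate 1, Ltbp3 passed as lower in total_SMC against PASMC (-0.36, adjusted p = 0.0248).

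The receptors of TGF-beta itself were lowest in BSMC. Tgfbr1, Tgfbr2 and the co-receptor Tgfbr3 (betaglycan) were each higher in total_SMC and in PASMC than in BSMC, and none of them was called between total_SMC and PASMC. Tgfbr1, the type I kinase, was at 1036, 1123 and 1336 in total_SMC, 1561, 1435 and 1247 in PASMC and 548, 921 and 426 in BSMC. Tgfbr1 in BSMC lay below all of those in total_SMC and PASMC, which overlapped. Tgfbr2, the type II kinase, was at 5383, 5497 and 6279 in total_SMC, 5111, 4362 and 4010 in PASMC and 2501, 3942 and 2149 in BSMC. For Tgfbr2 the 3 groups were fully apart, highest in total_SMC and lowest in BSMC. Tgfbr3 (ENSMUSG00000029287, mm39 chromosome 5, 107254436 to 107437495) was at 4062, 4246 and 4791 in total_SMC, 3784, 3628 and 3209 in PASMC and 1703, 2064 and 1399 in BSMC. For Tgfbr3 the 3 groups were fully apart, highest in total_SMC and lowest in BSMC. The fold of the mean level on the linear scale of the fit was 2.56 for Tgfbr3 in total_SMC against BSMC. Tgfbr1 (log2 fold change 0.95, SE 0.24, adjusted p = 0.00816), Tgfbr2 (1.04, SE 0.19, adjusted p = 0.00129) and Tgfbr3 (1.36, SE 0.14, adjusted p = 3.04e-05) were higher in total_SMC than in BSMC. Tgfbr1 (log2 fold change 1.23, SE 0.24, adjusted p = 0.00369), Tgfbr2 (0.69, SE 0.19, adjusted p = 0.0245) and Tgfbr3 (1.05, SE 0.14, adjusted p = 0.000351) were higher in PASMC than in BSMC. For Tgfbr2 the difference of PASMC from BSMC no longer passed without PASMC replicate 1 or 2 (adjusted p = 0.102 and 0.0643), without BSMC replicate 1 or 3 (0.088 and 0.0699), on values with the deposited scaling undone (0.0585) or in a fit of the pair of groups alone (0.0611). Without BSMC replicate 2, Tgfbr2 also passed as higher in total_SMC than in PASMC (0.35, adjusted p = 0.047).

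Receptors shared by activins and BMPs were split. The type II receptor Acvr2a was higher in total_SMC than in BSMC, and its paralogue Acvr2b was lower in total_SMC than in either other group. Acvr2a was at 925, 1099 and 1059 in total_SMC, 873, 674 and 420 in PASMC and 343, 473 and 124 in BSMC. Acvr2a lay above the PASMC and BSMC values in every total_SMC library, and those 2 groups overlapped. Acvr2b was at 123, 147 and 129 in total_SMC, 175, 229 and 280 in PASMC and 314, 299 and 325 in BSMC. For Acvr2b the 3 groups were fully apart, highest in BSMC and lowest in total_SMC. Acvrl1 (ALK1), the type I receptor of endothelium (ENSMUSG00000000530, mm39 chromosome 15, 101026403 to 101043217), was at 3014, 3030 and 2918 in total_SMC, 1894, 1972 and 2040 in PASMC and 1939, 2141 and 2574 in BSMC. Acvrl1 lay above the PASMC and BSMC values in every total_SMC library, and those 2 groups overlapped. Bmpr1b, a type I BMP receptor at low level here, was at 46, 50 and 55 in total_SMC, 38, 9 and 22 in PASMC and 11, 36 and 5 in BSMC. Bmpr1b lay above the PASMC and BSMC values in every total_SMC library, and those 2 groups overlapped. Acvr2a (log2 fold change 1.91, SE 0.41, adjusted p = 0.0035), Acvrl1 (0.44, SE 0.12, adjusted p = 0.0112) and Bmpr1b (1.89, SE 0.66, adjusted p = 0.039) were higher in total_SMC than in BSMC. Acvr2b (log2 fold change -1.23, SE 0.21, adjusted p = 0.000738) was lower in total_SMC than in BSMC. Acvrl1 (log2 fold change 0.60, SE 0.12, adjusted p = 0.00396) was higher in total_SMC than in PASMC. Acvr2b (log2 fold change -0.75, SE 0.21, adjusted p = 0.027) was lower in total_SMC than in PASMC. The other 5 receptors were not called in any comparison. Bmpr2, the type II BMP receptor, was at 620, 1020 and 705 in total_SMC, 579, 492 and 566 in PASMC and 799, 666 and 605 in BSMC, and its log2 fold changes were 0.16 in total_SMC against BSMC (adjusted p = 0.527), 0.49 in total_SMC against PASMC (adjusted p = 0.115) and -0.33 in PASMC against BSMC (adjusted p = 0.216). Bmpr1a, its main type I partner in vessels, ran from 1902 to 3797 over the 9 libraries, Eng, the endothelial co-receptor endoglin, from 1431 to 2419, Acvr1 from 358 to 485 and Acvr1b from 27 to 127. Per kb of exon, Acvrl1 averaged 700.4 in total_SMC, 462 in PASMC and 520.0 in BSMC. On that same scale Bmpr2 averaged 43.5 in total_SMC, 30.3 in PASMC and 38.4 in BSMC. Of 12 endothelial genes, 7 were higher and 0 lower in total_SMC than in PASMC, where 9.39% of all genes were higher. Against BSMC 3 were higher, 1 lower and 8 not called in total_SMC, a share of 25% higher that lies near the 23.7% of all genes. The part of endothelial genes in the Acvrl1 values was not tested. The defining gene Cdh5, the endothelial cadherin, was at 420, 538 and 396 in total_SMC, 171, 209 and 173 in PASMC and 350, 318 and 371 in BSMC. For Acvr2b the difference of total_SMC from PASMC no longer passed without total_SMC replicate 1, 2 or 3 (adjusted p = 0.0962, 0.0511 and 0.0947), without PASMC replicate 2 or 3 (0.0894 and 0.121) or on values with the deposited scaling undone (0.0508). For Acvrl1 the difference of total_SMC from BSMC no longer passed after scaling to equal totals (adjusted p = 0.0675) or after quantile normalization (0.0571). For Bmpr1b the difference of total_SMC from BSMC no longer passed without total_SMC replicate 1, 2 or 3 (adjusted p = 0.0823, 0.0948 and 0.107), without PASMC replicate 3 (0.0505), without BSMC replicate 1 or 3 (0.0924 and 0.121), on values with the deposited scaling undone (0.0595) or with the replicate block (0.0576). Without BSMC replicate 2, Bmpr1a passed as higher in total_SMC than in BSMC (0.57, adjusted p = 0.014) and in PASMC than in BSMC (0.62, adjusted p = 0.012). Acvr2a passed as higher in PASMC than in BSMC without PASMC replicate 3 (1.49, adjusted p = 0.0393) or BSMC replicate 2 (1.6, adjusted p = 0.00813), and with the replicate block (1.2, adjusted p = 0.0286), beside a log2 fold change of 1.2 (adjusted p = 0.0545) with all libraries and no block.

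**Figure D4:**
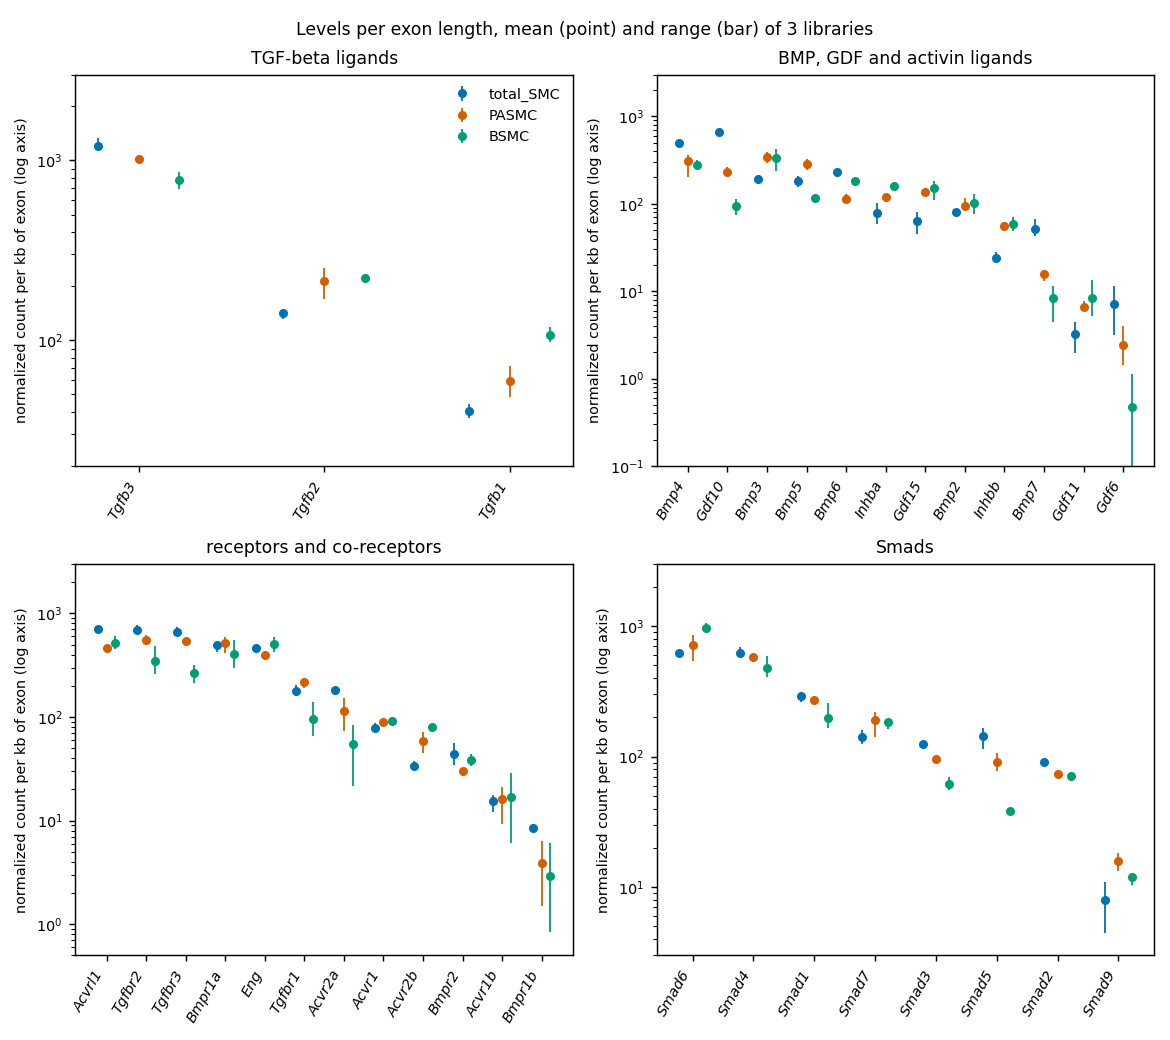
Normalized counts per kb of exon on a log axis for ligands, receptors and Smads, ordered within each panel by their mean over the 9 libraries; points are group means and bars run from the lowest to the highest of 3 libraries (Gdf6 in BSMC includes a 0, below the axis). Tgfb3 leads the TGF-beta ligands, and Acvrl1 and Tgfbr2 the receptors.

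Among the 12 BMP, GDF and activin ligands, 10 were called between total_SMC and BSMC (41.9% of all genes called), 9 between total_SMC and PASMC (16.2%) and 3 between PASMC and BSMC, where their 25% lies near the 22.1% of all genes. The BMP3-like ligand Gdf10 had the lowest adjusted p of the 58 genes in total_SMC against BSMC. Gdf10 (ENSMUSG00000021943, mm39 chromosome 14, 33645544 to 33659940) was at 3218, 3409 and 3570 in total_SMC, 1097, 1130 and 1383 in PASMC and 589, 383 and 484 in BSMC. For Gdf10 the 3 groups were fully apart, highest in total_SMC and lowest in BSMC. Its fold on the linear scale of the fit was 7.09 in total_SMC against BSMC, 2.84 in total_SMC against PASMC and 2.5 in PASMC against BSMC. Gdf10 (log2 fold change 2.83, SE 0.16, adjusted p = 3.83e-07) was higher in total_SMC than in BSMC. Gdf10 (log2 fold change 1.5, SE 0.16, adjusted p = 9.87e-05) was higher in total_SMC than in PASMC. Gdf10 (log2 fold change 1.32, SE 0.16, adjusted p = 0.000173) was higher in PASMC than in BSMC. Pdgfra, a growth factor receptor of fibroblasts, was ordered over the groups as Gdf10 was. Pdgfra was at 7107, 6749 and 8301 in total_SMC, 2061, 1854 and 1707 in PASMC and 247, 520 and 207 in BSMC. Of the 12 fibroblast genes, 5 were higher and 7 not called in total_SMC against PASMC, where 9.39% of all genes were higher. Against BSMC, 7 were higher and 5 not called both in total_SMC (23.7% of all genes higher) and in PASMC (13.2%). The part of fibroblast genes in the Gdf10 values was not tested.

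Bmp4 and Bmp7 were higher in total_SMC than in either other group, Bmp5 was highest in PASMC, and Bmp6 was lower in PASMC than in either other group. Bmp4, a ligand of lung mesenchyme and endothelium, was at 1066, 1111 and 1181 in total_SMC, 452, 820 and 779 in PASMC and 592, 555 and 711 in BSMC. Bmp4 lay above the PASMC and BSMC values in every total_SMC library, and those 2 groups overlapped. Bmp5 (ENSMUSG00000032179, mm39 chromosome 9, 75682646 to 75807592) was at 630, 837 and 732 in total_SMC, 1183, 1304 and 972 in PASMC and 429, 509 and 458 in BSMC. For Bmp5 the 3 groups were fully apart, highest in PASMC and lowest in BSMC. Bmp6, a ligand of endothelium that sets hepcidin in the liver, was at 818, 956 and 888 in total_SMC, 417, 502 and 396 in PASMC and 629, 750 and 773 in BSMC. For Bmp6 the 3 groups were fully apart, highest in total_SMC and lowest in PASMC. Bmp7, a ligand of kidney and epithelial development, was at 174, 266 and 181 in total_SMC, 65, 71 and 52 in PASMC and 37, 18 and 46 in BSMC. For Bmp7 the 3 groups were fully apart, highest in total_SMC and lowest in BSMC. Gdf6 was at 11, 40 and 25 in total_SMC, 14, 7 and 5 in PASMC and 0, 4 and 1 in BSMC. Gdf6 in BSMC lay below all of those in total_SMC and PASMC, which overlapped. Bmp4 (log2 fold change 0.86, SE 0.21, adjusted p = 0.00735), Bmp5 (0.65, SE 0.16, adjusted p = 0.00776), Bmp7 (2.66, SE 0.36, adjusted p = 0.000168) and Gdf6 (3.44, SE 0.74, adjusted p = 0.00363) were higher in total_SMC than in BSMC. Bmp4 (log2 fold change 0.76, SE 0.21, adjusted p = 0.0287), Bmp6 (1.02, SE 0.15, adjusted p = 0.000727) and Bmp7 (1.69, SE 0.36, adjusted p = 0.00641) were higher in total_SMC than in PASMC. Bmp5 (log2 fold change -0.65, SE 0.16, adjusted p = 0.0155) was lower in total_SMC than in PASMC. Bmp5 (log2 fold change 1.3, SE 0.16, adjusted p = 0.000182) was higher in PASMC than in BSMC. Bmp6 (log2 fold change -0.71, SE 0.15, adjusted p = 0.00642) was lower in PASMC than in BSMC. The Gdf6 change depended on the pseudocount and was 2.11 with 5 in place of 1. Mesothelial genes were all higher in total_SMC than in PASMC, 8 of 8, where 9.39% of all genes were higher. Msln, the surface protein mesothelin, was at 1821, 1713 and 1568 in total_SMC, 2, 18 and 8 in PASMC and 200, 64 and 106 in BSMC. The part of mesothelial genes in the Bmp4, Bmp6 and Bmp7 values was not tested. For Bmp4 the difference of total_SMC from PASMC no longer passed without total_SMC replicate 1, 2 or 3 (adjusted p = 0.0715, 0.0864 and 0.105), without PASMC replicate 1 (0.0837) or on values with the deposited scaling undone (0.0879). For Bmp5 the difference of total_SMC from PASMC no longer passed without total_SMC replicate 1 or 3 (adjusted p = 0.077 and 0.0577), without PASMC replicate 1 or 2 (0.0618 and 0.084) or on values with the deposited scaling undone (0.0844). For Bmp6 the difference of PASMC from BSMC no longer passed on values with the deposited scaling undone (adjusted p = 0.136). Without PASMC replicate 1 the Bmp4 change in total_SMC against PASMC was 0.48. Bmp7 passed as higher in PASMC than in BSMC without BSMC replicate 3 (1.23, adjusted p = 0.0327) and Gdf6 without BSMC replicate 2 (2.66, adjusted p = 0.0138).

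The activin subunits and a further group of ligands ran the other way, lower in total_SMC. Bmp3, which opposes other BMPs in bone, was at 1243, 1459 and 1557 in total_SMC, 2869, 2595 and 2165 in PASMC and 2444, 3110 and 1759 in BSMC. Bmp3 lay below the PASMC and BSMC values in every total_SMC library, and those 2 groups overlapped. Inhba, the activin A subunit, was at 644, 466 and 373 in total_SMC, 735, 744 and 827 in PASMC and 1078, 953 and 1035 in BSMC. For Inhba the 3 groups were fully apart, highest in BSMC and lowest in total_SMC. Inhbb, the activin B subunit, was at 93, 93 and 119 in total_SMC, 210, 262 and 229 in PASMC and 210, 296 and 243 in BSMC. Inhbb lay below the PASMC and BSMC values in every total_SMC library, and those 2 groups overlapped. Gdf15, a stress-induced hormone, was at 150, 84 and 120 in total_SMC, 243, 235 and 273 in PASMC and 314, 202 and 334 in BSMC. Gdf15 lay below the PASMC and BSMC values in every total_SMC library, and those 2 groups overlapped. Gdf11, a relative of myostatin, was at only 18, 13 and 8 in total_SMC, 24, 31 and 26 in PASMC and 55, 21 and 26 in BSMC. Gdf11 lay below the PASMC and BSMC values in every total_SMC library, and those 2 groups overlapped. Bmp3 (log2 fold change -0.75, SE 0.19, adjusted p = 0.00928), Inhba (-1.08, SE 0.18, adjusted p = 0.000823), Inhbb (-1.28, SE 0.21, adjusted p = 0.00064) and Gdf15 (-1.26, SE 0.26, adjusted p = 0.00266) were lower in total_SMC than in BSMC. Gdf11 (log2 fold change -1.27, SE 0.47, adjusted p = 0.0483) was lower in total_SMC than in BSMC. Bmp3 (log2 fold change -0.84, SE 0.19, adjusted p = 0.0105), Inhba (-0.67, SE 0.18, adjusted p = 0.0271), Inhbb (-1.2, SE 0.21, adjusted p = 0.00214) and Gdf15 (-1.11, SE 0.26, adjusted p = 0.0114) were lower in total_SMC than in PASMC. None of these 5 was called between PASMC and BSMC, where their log2 fold changes ran from -0.41 to 0.09. Bmp2 ran from 250 to 461 over the 9 libraries and was not called in any comparison. For Bmp3 the difference of total_SMC from BSMC no longer passed on values with the deposited scaling undone (adjusted p = 0.158). For Bmp3 the difference of total_SMC from PASMC no longer passed without total_SMC replicate 1 (adjusted p = 0.0539), without PASMC replicate 1 (0.0506) or on values with the deposited scaling undone (0.0826). For Inhba the difference of total_SMC from PASMC no longer passed without total_SMC replicate 2 or 3 (adjusted p = 0.0908 and 0.128), without PASMC replicate 1, 2 or 3 (0.0641, 0.0721 and 0.0976) or on values with the deposited scaling undone (0.0838). For Gdf15 the difference of total_SMC from PASMC no longer passed without total_SMC replicate 2 (adjusted p = 0.056). For Gdf11 the difference of total_SMC from BSMC no longer passed without total_SMC replicate 1, 2 or 3 (adjusted p = 0.0502, 0.0953 and 0.173), without PASMC replicate 1, 2 or 3 (0.0653, 0.0655 and 0.0639), without BSMC replicate 1 or 3 (0.159 and 0.0552), with no filter (0.0561), after quantile normalization (0.0725), on values with the deposited scaling undone (0.1), in a fit of the pair of groups alone (0.092) or with the replicate block (0.0577). The sum of 10 smooth muscle genes moved in the same direction as these ligands, with a CPM of 3408 to 3786 in total_SMC, 4127 to 4719 in PASMC and 4451 to 5557 in BSMC. Of the 10, 7 were lower and 3 not called in total_SMC against BSMC, where 18.2% of all genes were lower. Against PASMC only 3 were lower and 7 not called in total_SMC, where 6.83% of all genes were lower. Their part in these results was not tested.

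**Figure D5:**
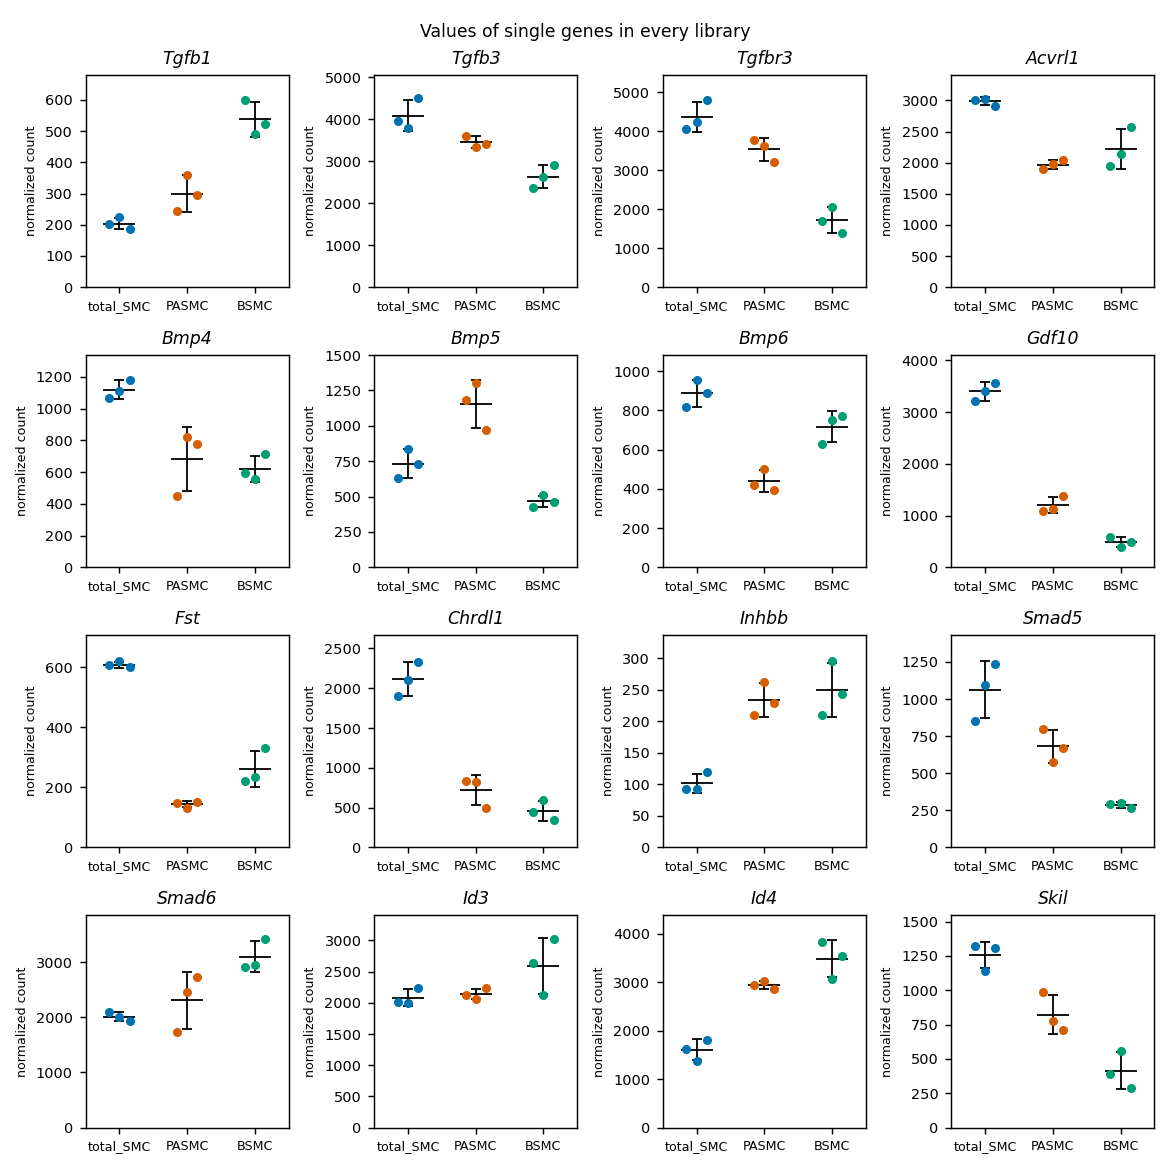
Normalized counts of 16 of the genes in each of the 9 libraries, with the mean ± SD of 3 libraries per group; every axis starts at 0. Gdf10, Fst and Chrdl1 are above all other libraries in total_SMC, Bmp5 in PASMC and Tgfb1 in BSMC.

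The extracellular antagonists did not move as 1 group. Follistatin (Fst), which traps activins, and the chordin-like protein Chrdl1, which binds BMPs, were highest in total_SMC, while noggin (Nog) and gremlin (Grem1), both BMP traps, were lower in total_SMC than in BSMC, Nog also lower than in PASMC. Fst (ENSMUSG00000021765, mm39 chromosome 13, 114588826 to 114595487) was at 607, 620 and 601 in total_SMC, 147, 133 and 152 in PASMC and 221, 235 and 331 in BSMC. For Fst the 3 groups were fully apart, highest in total_SMC and lowest in PASMC. Chrdl1 was at 1903, 2102 and 2329 in total_SMC, 833, 823 and 501 in PASMC and 448, 590 and 339 in BSMC. Chrdl1 lay above the PASMC and BSMC values in every total_SMC library, and those 2 groups overlapped. Chrd, chordin itself, was at 455, 510 and 570 in total_SMC, 365, 295 and 356 in PASMC and 296, 255 and 189 in BSMC. Chrd lay above the PASMC and BSMC values in every total_SMC library, and those 2 groups overlapped. Bmp1, the protease that cuts chordin and procollagens, was at 2403, 2506 and 2488 in total_SMC, 2127, 2028 and 1962 in PASMC and 1390, 1433 and 1525 in BSMC. For Bmp1 the 3 groups were fully apart, highest in total_SMC and lowest in BSMC. Bmper, an endothelial regulator of BMPs, was at 108, 124 and 105 in total_SMC, 46, 19 and 64 in PASMC and 1, 42 and 13 in BSMC. Bmper lay above the PASMC and BSMC values in every total_SMC library, and those 2 groups overlapped.

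Nog was at 5, 14 and 16 in total_SMC, 33, 66 and 56 in PASMC and 93, 29 and 56 in BSMC, a low level throughout. Nog lay below the PASMC and BSMC values in every total_SMC library, and those 2 groups overlapped. Grem1 was at 2, 7 and 4 in total_SMC, 9, 7 and 16 in PASMC and 27, 33 and 55 in BSMC. Grem1 in BSMC lay above all of those in total_SMC and PASMC, which overlapped. Fstl3, a relative of follistatin, was at 664, 525 and 602 in total_SMC, 812, 755 and 793 in PASMC and 857, 802 and 971 in BSMC. Fstl3 lay below the PASMC and BSMC values in every total_SMC library, and those 2 groups overlapped. Fstl1 and Nbl1 were the most abundant per exon length of these 10 and were not called in any comparison. Fstl1 was at 5959, 5761 and 6646 in total_SMC, 6232, 5642 and 5987 in PASMC and 6598, 5939 and 6464 in BSMC. Nbl1, a DAN family BMP antagonist, was at 3309, 3179 and 3741 in total_SMC, 2979, 2749 and 3121 in PASMC and 2891, 2365 and 3250 in BSMC. For Nbl1, total_SMC lay above PASMC without overlap, and BSMC overlapped both. Fst (log2 fold change 1.24, SE 0.19, adjusted p = 0.000363), Chrdl1 (2.23, SE 0.23, adjusted p = 3.03e-05), Chrd (1.07, SE 0.20, adjusted p = 0.00134) and Bmp1 (0.77, SE 0.10, adjusted p = 0.000135) were higher in total_SMC than in BSMC. Bmper (log2 fold change 3.41, SE 0.87, adjusted p = 0.00937) was higher in total_SMC than in BSMC. Nog (log2 fold change -2.24, SE 0.53, adjusted p = 0.00658), Grem1 (-2.93, SE 0.56, adjusted p = 0.00166) and Fstl3 (-0.56, SE 0.14, adjusted p = 0.00848) were lower in total_SMC than in BSMC. Fst (log2 fold change 2.08, SE 0.19, adjusted p = 3e-05) and Chrdl1 (1.59, SE 0.23, adjusted p = 0.000701) were higher in total_SMC than in PASMC. Nog (log2 fold change -2.14, SE 0.53, adjusted p = 0.0173) was lower in total_SMC than in PASMC. Bmp1 (log2 fold change 0.49, SE 0.10, adjusted p = 0.00497) was higher in PASMC than in BSMC. Fst (log2 fold change -0.84, SE 0.19, adjusted p = 0.00842) and Grem1 (-1.76, SE 0.56, adjusted p = 0.0418) were lower in PASMC than in BSMC. For Nog the difference of total_SMC from PASMC no longer passed without total_SMC replicate 1 (adjusted p = 0.0738) or without PASMC replicate 2 or 3 (0.077 and 0.06). For Grem1 the difference of PASMC from BSMC no longer passed without total_SMC replicate 3 (adjusted p = 0.0637), without PASMC replicate 1 or 2 (0.122 and 0.136), without BSMC replicate 1 or 3 (0.056 and 0.117), after quantile normalization (0.0634), on values with the deposited scaling undone (0.0683), in a fit of the pair of groups alone (0.0584), with the replicate block (0.05) or with array weights (0.0623). For Fstl3 the difference of total_SMC from BSMC no longer passed on values with the deposited scaling undone (adjusted p = 0.0835). The Bmper change in total_SMC against BSMC was 2.2 without BSMC replicate 1, where Bmper was at 1. Between PASMC and BSMC, and without BSMC replicate 2, Bmper (2.9, adjusted p = 0.0107) and Chrdl1 (0.84, adjusted p = 0.0118) passed as higher in PASMC, and Chrdl1 also passed without PASMC replicate 3 (0.89, adjusted p = 0.0191). Between total_SMC and PASMC, and without BSMC replicate 2, Bmp1 (0.27, adjusted p = 0.0437), Fstl3 (-0.40, adjusted p = 0.0398) and Chrd (0.59, adjusted p = 0.048) passed, and Chrd also passed without BSMC replicate 1 (0.59, adjusted p = 0.0416) or 3 (0.59, adjusted p = 0.0226). Nbl1 passed as higher in total_SMC than in BSMC without BSMC replicate 3 (0.38, adjusted p = 0.0351) and with the replicate block (0.27, adjusted p = 0.0463).

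Of the 8 Smads, 5 were higher and 1 lower in total_SMC than in BSMC, where 23.7% of all genes were higher and 18.2% lower. Of the 8, 1 was called between total_SMC and PASMC and 2 between PASMC and BSMC, shares of 12.5% and 25% that lie near the 16.2% and 22.1% of all genes. Smad1, Smad2, Smad3, Smad4 and Smad5 were the higher genes and the inhibitor Smad6 the lower one. Smad5 (ENSMUSG00000021540, mm39 chromosome 13, 56850823 to 56890190), a receptor Smad of BMPs, was at 855, 1097 and 1233 in total_SMC, 797, 576 and 670 in PASMC and 294, 301 and 265 in BSMC. For Smad5 the 3 groups were fully apart, highest in total_SMC and lowest in BSMC. Smad1, its close relative, was at 1934, 1643 and 1889 in total_SMC, 1800, 1692 and 1573 in PASMC and 1066, 1603 and 1043 in BSMC. For Smad1, total_SMC lay above BSMC without overlap, and PASMC overlapped both. Smad3, a receptor Smad of TGF-beta, was at 634, 741 and 711 in total_SMC, 553, 562 and 483 in PASMC and 306, 388 and 325 in BSMC. For Smad3 the 3 groups were fully apart, highest in total_SMC and lowest in BSMC. Smad2 was at 805, 831 and 782 in total_SMC, 668, 634 and 634 in PASMC and 646, 604 and 614 in BSMC. Smad2 lay above the PASMC and BSMC values in every total_SMC library, and those 2 groups overlapped. Smad4, the common partner, was at 2271, 2161 and 2568 in total_SMC, 2275, 2170 and 1978 in PASMC and 1604, 2179 and 1515 in BSMC. For Smad4 the libraries of all 3 groups overlapped. Smad6, which blocks BMP receptor Smads, was at 2092, 2007 and 1925 in total_SMC, 1725, 2462 and 2734 in PASMC and 2914, 2953 and 3419 in BSMC. Smad6 in BSMC lay above all of those in total_SMC and PASMC, which overlapped. Smad7, the inhibitor of TGF-beta receptors, ran from 570 to 987 and Smad9 from 24 to 98 over the 9 libraries, and neither was called.

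Smad5 (log2 fold change 1.87, SE 0.18, adjusted p = 1.45e-05), Smad1 (0.58, SE 0.16, adjusted p = 0.0145), Smad3 (1.04, SE 0.15, adjusted p = 0.000314) and Smad2 (0.38, SE 0.12, adjusted p = 0.0287) were higher in total_SMC than in BSMC. Smad4 (log2 fold change 0.42, SE 0.14, adjusted p = 0.0371) was higher in total_SMC than in BSMC. Smad6 (log2 fold change -0.62, SE 0.16, adjusted p = 0.0086) was lower in total_SMC than in BSMC. Smad5 (log2 fold change 0.64, SE 0.18, adjusted p = 0.0283) was higher in total_SMC than in PASMC. Smad5 (log2 fold change 1.23, SE 0.18, adjusted p = 0.000521) and Smad3 (0.65, SE 0.15, adjusted p = 0.0114) were higher in PASMC than in BSMC. For Smad5 the difference of total_SMC from PASMC no longer passed without total_SMC replicate 2 or 3 (adjusted p = 0.102 and 0.147), without PASMC replicate 2 or 3 (0.129 and 0.0819), on values with the deposited scaling undone (0.107) or with the replicate block (0.0547). For Smad1 the difference of total_SMC from BSMC no longer passed without total_SMC replicate 1 or 3 (adjusted p = 0.0539 and 0.0548) or without BSMC replicate 1 (0.0554). For Smad3 the difference of PASMC from BSMC no longer passed without PASMC replicate 1 or 2 (adjusted p = 0.0537 and 0.0524). For Smad2 the difference of total_SMC from BSMC no longer passed without total_SMC replicate 1, 2 or 3 (adjusted p = 0.0708, 0.0818 and 0.0762), without BSMC replicate 3 (0.0511), after scaling to equal totals (0.184), after quantile normalization (0.183), in a fit of the pair of groups alone (0.0743) or with array weights (0.0507). For Smad4 the difference of total_SMC from BSMC no longer passed without total_SMC replicate 1, 2 or 3 (adjusted p = 0.0759, 0.0538 and 0.137), without PASMC replicate 1 or 2 (0.0513 and 0.0548), without BSMC replicate 1 or 3 (0.11 and 0.113), after scaling to equal totals (0.125), after quantile normalization (0.0902), on values with the deposited scaling undone (0.0758) or in a fit of the pair of groups alone (0.0737). For Smad6 the difference of total_SMC from BSMC no longer passed on values with the deposited scaling undone (adjusted p = 0.116). Scaled to equal totals, the changes of Smad2 and Smad4 in total_SMC against BSMC were 0.22 and 0.26. Between PASMC and BSMC, and without BSMC replicate 2, Smad1 (0.68, adjusted p = 0.0012), Smad4 (0.46, adjusted p = 0.00818) and Smad6 (-0.48, adjusted p = 0.0445) passed, and Smad6 also passed without PASMC replicate 3 (-0.58, adjusted p = 0.0333). Smad7 passed as lower in total_SMC against PASMC without PASMC replicate 1 (-0.62, adjusted p = 0.0349), and Smad9 without total_SMC replicate 3 (-1.33, adjusted p = 0.0448) or BSMC replicate 3 (-1.05, adjusted p = 0.048).

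Skil and Smurf1, inhibitors inside the cell, were higher in both total_SMC and PASMC than in BSMC. Skil (SnoN), a corepressor of Smad complexes, was at 1319, 1144 and 1306 in total_SMC, 985, 775 and 709 in PASMC and 393, 557 and 290 in BSMC. For Skil the 3 groups were fully apart, highest in total_SMC and lowest in BSMC. Smurf1, a ubiquitin ligase of BMP Smads, was at 1072, 882 and 1315 in total_SMC, 1116, 1026 and 956 in PASMC and 469, 674 and 416 in BSMC. Smurf1 in BSMC lay below all of those in total_SMC and PASMC, which overlapped. Bambi, a decoy receptor without a kinase, was at 985, 956 and 979 in total_SMC, 1375, 1245 and 1272 in PASMC and 1397, 1034 and 1270 in BSMC and was not called. Bambi lay below the PASMC and BSMC values in every total_SMC library, and those 2 groups overlapped. Smurf2 ran from 455 to 856 and was not called. Skil (log2 fold change 1.65, SE 0.22, adjusted p = 0.000157) and Smurf1 (1.08, SE 0.20, adjusted p = 0.00135) were higher in total_SMC than in BSMC. Skil (log2 fold change 1.03, SE 0.22, adjusted p = 0.00656) and Smurf1 (1.02, SE 0.20, adjusted p = 0.00392) were higher in PASMC than in BSMC. Skil passed as higher in total_SMC than in PASMC without BSMC replicate 2 (0.62, adjusted p = 0.0186) or 3 (0.62, adjusted p = 0.0226). Bambi passed as lower in total_SMC against PASMC without BSMC replicate 1 (-0.41, adjusted p = 0.0365), 2 (-0.41, adjusted p = 0.0108) or 3 (-0.41, adjusted p = 0.0437), and lower in total_SMC than in BSMC without BSMC replicate 2 (-0.45, adjusted p = 0.00494). Without that library Smurf2 passed as higher in total_SMC than in BSMC (0.56, adjusted p = 0.0232).

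The Id genes encode inhibitors of DNA binding, helix-loop-helix proteins that are direct targets of BMP Smads in many cells. Id4 was lower in total_SMC than in PASMC and in BSMC, while Id1 and Id2 were lower in total_SMC than in BSMC alone and Id3 was not called. The promoters of Id2, Id3 and Id4 are shown because the Id genes are the pathway's own response genes and these 3 of the 4 had an entry in the promoter table used. The sequences are those of RefSeq on GRCm38.p6, from 250 bases before to 50 after the transcription start, on the strand of the gene. Capitals mark GGCGCC, a palindrome that BMP Smads bind, and GTCT or its reverse complement AGAC, the core Smad element, searched on both strands.
Id2 (chr12:25096043-25096342, minus strand): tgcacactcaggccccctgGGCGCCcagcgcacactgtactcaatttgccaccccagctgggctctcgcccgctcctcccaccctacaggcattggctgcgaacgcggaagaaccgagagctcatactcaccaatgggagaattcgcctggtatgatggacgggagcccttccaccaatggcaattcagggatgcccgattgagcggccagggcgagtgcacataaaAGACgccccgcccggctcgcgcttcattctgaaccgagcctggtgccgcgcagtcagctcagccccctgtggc
Id3 (chr4:136143572-136143871, plus strand): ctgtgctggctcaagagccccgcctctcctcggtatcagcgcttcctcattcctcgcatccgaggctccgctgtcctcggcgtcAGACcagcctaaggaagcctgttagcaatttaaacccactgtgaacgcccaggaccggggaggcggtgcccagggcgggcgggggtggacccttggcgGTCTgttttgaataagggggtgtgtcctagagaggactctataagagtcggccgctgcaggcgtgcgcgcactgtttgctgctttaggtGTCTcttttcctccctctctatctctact
Id4 (chr13:48260866-48261165, plus strand): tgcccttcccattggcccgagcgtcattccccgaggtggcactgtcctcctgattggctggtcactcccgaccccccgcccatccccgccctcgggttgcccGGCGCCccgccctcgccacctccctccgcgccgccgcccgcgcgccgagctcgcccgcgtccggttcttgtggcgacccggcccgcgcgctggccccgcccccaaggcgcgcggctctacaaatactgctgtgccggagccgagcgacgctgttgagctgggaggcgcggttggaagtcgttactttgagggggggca
GGCGCC occurred 1 time in the Id2 window, 0 times in Id3 and 1 time in Id4, and in 11.9% of 32544 promoters of the same length. GTCT or AGAC occurred 1 time in Id2, 3 times in Id3 and 0 times in Id4, and in 88.0% of those promoters. No match of 1 motif overlapped the other, and a match is a description of letters only.

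Id4 (ENSMUSG00000021379, mm39 chromosome 13, 48414704 to 48419502) was at 1627, 1375 and 1808 in total_SMC, 2945, 3015 and 2864 in PASMC and 3832, 3075 and 3536 in BSMC. For Id4 the 3 groups were fully apart, highest in BSMC and lowest in total_SMC. Id1 was at 1051, 1069 and 1009 in total_SMC, 1016, 1097 and 1286 in PASMC and 1623, 1158 and 1605 in BSMC. For Id1, total_SMC lay below BSMC without overlap, and PASMC overlapped both. Id2 was at 1974, 2086 and 2130 in total_SMC, 2307, 2243 and 2450 in PASMC and 3080, 2439 and 3357 in BSMC. Id2 lay below the PASMC and BSMC values in every total_SMC library, and those 2 groups overlapped. Id3 was at 2012, 1995 and 2241 in total_SMC, 2125, 2065 and 2234 in PASMC and 2647, 2122 and 3016 in BSMC. For Id3 the libraries of all 3 groups overlapped. Tgfbi, a matrix protein named for its induction by TGF-beta, was at 2669, 3161 and 2915 in total_SMC, 2446, 2691 and 2627 in PASMC and 1858, 1666 and 1997 in BSMC. Tgfbi in BSMC lay below all of those in total_SMC and PASMC, which overlapped. Tgfbi (log2 fold change 0.66, SE 0.11, adjusted p = 0.000781) was higher in total_SMC than in BSMC. Id4 (log2 fold change -1.12, SE 0.13, adjusted p = 4.91e-05), Id1 (-0.47, SE 0.15, adjusted p = 0.0282) and Id2 (-0.51, SE 0.12, adjusted p = 0.00751) were lower in total_SMC than in BSMC. Id4 (log2 fold change -0.88, SE 0.13, adjusted p = 0.000562) was lower in total_SMC than in PASMC. Tgfbi (log2 fold change 0.49, SE 0.11, adjusted p = 0.00948) was higher in PASMC than in BSMC. For Id1 the difference of total_SMC from BSMC no longer passed without total_SMC replicate 1, 2 or 3 (adjusted p = 0.0667, 0.061 and 0.09), without BSMC replicate 1 or 3 (0.0935 and 0.0799), on values with the deposited scaling undone (0.164) or in a fit of the pair of groups alone (0.0508).

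Id1, Id2 and Id3 were among 7 of the 58 genes (12.1%) with at least 1 implied read per base of exon. The others were Tgfb3, Fstl1, Nbl1 and Ltbp4. That density was reached by 235 genes, 1.53% of the genes tested that had an exon length. Within groups the median ratio of variance to mean of implied reads was 24.1 for genes at 0.2 to 0.4 reads per base, 8.08 at 1 to 1.5 and 1.19 above 1.5. What this means for the fold changes of the 7 genes was not tested. Id3, at 1.28 reads per base, had 2189, 2213 and 2126 implied reads in total_SMC, 2231, 2394 and 2327 in PASMC and 2369, 2374 and 2358 in BSMC. These implied reads differed little between the 9 libraries. The factors alone would shift a gene with constant reads by -0.18 in total_SMC against BSMC and by -0.23 in PASMC against BSMC. With the deposited scaling undone, the change in total_SMC against BSMC was -0.29, adjusted p = 0.164 for Id1, -0.32, adjusted p = 0.048 for Id2 and -0.94, adjusted p = 0.000879 for Id4. Id4 had 0.70 implied reads per base. Without BSMC replicate 2, Id1 (-0.52, adjusted p = 0.00681), Id2 (-0.46, adjusted p = 0.00359), Id3 (-0.40, adjusted p = 0.0108) and Id4 (-0.32, adjusted p = 0.0489) passed as lower in PASMC than in BSMC, and Id3 as lower in total_SMC than in BSMC (-0.44, adjusted p = 0.00484). The factor of that library was 0.89, beside 1.12 and 1.28 in BSMC replicates 1 and 3. With all libraries and the scaling undone, the changes in PASMC against BSMC were -0.126 for Id1, -0.099 for Id2, -0.031 for Id3 and -0.0055 for Id4. None of these passed, and leaving out a library with the scaling undone was not tried.

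Of 103 further pathway genes from lists drawn up beside the 58, 92 were in the table and 80 were tested. Between total_SMC and BSMC 22 were higher and 17 lower, 48.8% of those tested against 41.9% of all genes. Between total_SMC and PASMC 7 were higher and 14 lower, 26.2% against 16.2%, and between PASMC and BSMC 12 and 5, 21.2% against 22.1%. The balance depended on the scaling: with equal totals, and with quantile normalization, 17 were higher and 28 lower in total_SMC than in BSMC. In PASMC against BSMC it was 11 higher and 10 lower with equal totals and 11 and 11 with quantile normalization, and 13 and 3 with the deposited scaling undone. A fit of total_SMC and PASMC alone gave 17 higher and 16 lower in total_SMC. The calls of PASMC against BSMC were 22 higher and 15 lower without BSMC replicate 2, and 7 and 3 without PASMC replicate 1. Among the lower genes, Sost (sclerostin), a Wnt and BMP modulator, was at 153, 333 and 537 in total_SMC, 1366, 1155 and 1735 in PASMC and 1332, 1507 and 1291 in BSMC. Sost lay below the PASMC and BSMC values in every total_SMC library, and those 2 groups overlapped. Chrdl2, a chordin-like BMP binder, was at 10, 10 and 6 in total_SMC, 64, 151 and 358 in PASMC and 68, 41 and 63 in BSMC. Chrdl2 lay below the PASMC and BSMC values in every total_SMC library, and those 2 groups overlapped. Sost (log2 fold change -2.18, SE 0.35, adjusted p = 0.000538), Vwc2 (-1.8, SE 0.23, adjusted p = 0.000125) and Hjv (-1.33, SE 0.29, adjusted p = 0.00403) were lower in total_SMC than in BSMC. Chrdl2 (log2 fold change -4.01, SE 0.54, adjusted p = 0.000419), Sost (-2.21, SE 0.35, adjusted p = 0.00109) and Scube3 (-1.66, SE 0.16, adjusted p = 5.2e-05) were lower in total_SMC than in PASMC. Among the higher genes, Fmod (fibromodulin), a matrix proteoglycan that binds TGF-beta, was at 2054, 1989 and 2533 in total_SMC, 695, 558 and 760 in PASMC and 447, 316 and 477 in BSMC. For Fmod the 3 groups were fully apart, highest in total_SMC and lowest in BSMC. Fn1, the matrix protein fibronectin, was at 6158, 6575 and 6996 in total_SMC, 6134, 4720 and 5046 in PASMC and 2269, 2283 and 1776 in BSMC. For Fn1 the 3 groups were fully apart, highest in total_SMC and lowest in BSMC. Fmod (log2 fold change 2.42, SE 0.19, adjusted p = 3.33e-06), Itgb8 (1.92, SE 0.29, adjusted p = 0.000408) and Fn1 (1.65, SE 0.13, adjusted p = 4.09e-06) were higher in total_SMC than in BSMC. Nrros (log2 fold change 2.16, SE 0.24, adjusted p = 0.000112), Fmod (1.71, SE 0.19, adjusted p = 0.000109) and Zeb2 (0.65, SE 0.16, adjusted p = 0.0157) were higher in total_SMC than in PASMC. Itgb8 and Itgav encode the integrin chains that free latent TGF-beta. Nrros, which presents latent TGF-beta on myeloid cells, was at 215, 222 and 182 in total_SMC, 36, 41 and 63 in PASMC and 498, 434 and 527 in BSMC. For Nrros the 3 groups were fully apart, highest in BSMC and lowest in PASMC. Fn1 (log2 fold change 1.33, SE 0.13, adjusted p = 3.76e-05), Itgav (1.22, SE 0.36, adjusted p = 0.0347) and Cd109 (1.16, SE 0.20, adjusted p = 0.00197) were higher in PASMC than in BSMC. Nrros (log2 fold change -3.39, SE 0.24, adjusted p = 3.49e-06), Cdkn2b (-1.0, SE 0.29, adjusted p = 0.0299) and Pmepa1 (-0.37, SE 0.12, adjusted p = 0.0468) were lower in PASMC than in BSMC. Nrros moved with the leukocyte genes, 11 of 12 of which were lower in PASMC than in BSMC (8.88% of all genes lower), and their part in it was not tested.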

How the data were processed

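The deposited table held 1 score per gene and library, whole numbers that the authors had normalized between libraries and rounded, as their steps showed; they are not raw counts, so limma 3.58.1 in R 4.3.3 was used in place of a count model. The submitters' processing notes list DESeq2 1.36.0, featureCounts 2.0.4 and STAR 2.7.11a beside Trimmomatic 0.39 and Picard 3.1.1, with mm39 as build and no roles. Library factors, recovered from which whole numbers occur, gave 6.39 to 10.0 M implied reads. Values were tested as log2(value + 1) for genes at 10 or more in at least 3 libraries, in 1 fit of all 9 libraries with trend and robust options and Benjamini-Hochberg adjustment. The fit was also run on simulated counts with 1 fixed dispersion and few changed genes. These data differ in both, so that run checks the code and not the calls given here. Members called at least once, and the 2 most abundant of each role, are given per library; of the other pathway genes, up to 3 called per direction and comparison whose larger group mean reached 100. The members, lists and tests were chosen with earlier results of these data known. Exon lengths came from GENCODE vM21. Same-numbered libraries did not deviate together (correlations from -0.12 to 0.14), so numbers were not taken as pairs.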

Additional observations from a re-analysis of the deposited data

How the results depend on the processing

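No called change of the 58 genes turned direction under the 18 alternatives tried (another pseudocount, filter, scaling, model or each library left out). Of the calls, 30 of 42 in total_SMC against BSMC, 8 of 17 in total_SMC against PASMC and 11 of 18 in PASMC against BSMC held under every alternative that tested the gene. The stricter filter tested 54 of the 58. It left out Gdf6 and Grem1, which are among the 30 and were tested under 17 alternatives. With the replicate block the members called were 41, 16 and 18 in those comparisons. In total_SMC against PASMC the members called were 10 with the scaling undone, 32 in a fit of those groups alone and 37 with array weights, the genes called 4345 and 5082 in the last 2, and the other pathway genes 33 and 37. In PASMC against BSMC a fit of those groups alone called 1926 genes and 9 other pathway genes. Leaving out 1 library gave 11 to 23 members, 1679 to 3219 genes and 14 to 26 other pathway genes in total_SMC against PASMC, with the fewest members without total_SMC replicate 1 or 2, and 13 to 30 members, 1724 to 6698 genes and 10 to 37 other pathway genes in PASMC against BSMC, with the fewest members without PASMC replicate 1 or 2 and the most without BSMC replicate 2. It gave 35 to 46 members in total_SMC against BSMC. The cause was not tested. Equal totals moved the median of all genes to -0.11 in total_SMC against BSMC, with 3042 genes higher and 4065 lower, and quantile normalization gave 8 members higher and 14 lower in total_SMC against PASMC. Some changes not called above passed under other scalings. With equal totals and with quantile normalization, Smad7 (adjusted p = 0.0401 and 0.0338), Id3 (0.0144 and 0.014) and Bambi (0.013 and 0.0134) passed as lower in total_SMC than in BSMC. Under both, Eng passed as lower in PASMC than in BSMC (0.0498 and 0.049). With quantile normalization, Fstl1 also passed as lower in total_SMC than in BSMC (-0.27, adjusted p = 0.0167). With the scaling undone, Nbl1 (0.00701) and Ltbp4 (0.0499) passed as higher in total_SMC than in BSMC, and Bmp7 (0.0342) and Ltbp2 (0.0266) in PASMC than in BSMC. Gdf6, Grem1, Gdf11, Nog, Bmper, Bmpr1b, Bmp7, Acvr1b and Smad9 had low counts in at least 1 group, so their values carry more counting error. No detection limit was measured.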

Other observations

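Gdf2 (BMP9), a circulating ligand of Acvrl1 made mainly in the liver, was at 22, 26 and 22 in total_SMC, 0, 0 and 1 in PASMC and 0, 0 and 0 in BSMC. Reads of it were found in all 3 total_SMC libraries and in 1 of the 6 others. Bmp10, a ligand of the same receptor made in the heart, was at 0, 0 and 0 in total_SMC, 0, 0 and 2 in PASMC and 0, 0 and 14 in BSMC. Bmp10 did not pass the filter on low values. Both genes were picked for mention with these values known.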
